A study of Mus musculus with 15 samples.

Results

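The genes described here are 41 genes of mitosis and cytokinesis, the genes whose products carry a cell through chromosome condensation, spindle assembly, chromosome segregation and the final cut between the daughter cells. They were listed by name for that function, and the rule itself takes no measured value. The list was nonetheless chosen with earlier results of these data known. Each of the 41 was found by mapping the Ensembl identifiers of the count files to mouse symbols, out of 25700 identifiers in all. All 41 had enough counts to be tested, among 12279 tested genes. They divide into 10 regulators of mitotic entry and exit, 4 genes of the spindle checkpoint, 6 of the centromere and kinetochore, 3 of the chromosomal passenger complex, 6 spindle motors and assembly factors, 6 genes of the central spindle and cytokinesis, and 6 of chromosome structure.

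RNA was sequenced from 3T3-L1, a mouse line of preadipocytes that become lipid-storing adipocytes under a hormone cocktail. The 15 libraries formed 5 groups of 3: wild-type cells (WT) at day 0 and day 6, MIGA2-depleted cells (MIGA2-KO) at day 0 and day 6, and cells overexpressing MIGA2-GFP at day 6. All groups share the same handling. Cells stayed at confluence for 48 h, and day 0 is the moment at which dexamethasone, IBMX and insulin were added. Insulin alone followed on day 2, plain serum medium on day 4, and harvest on day 6. MIGA2 sits in the outer membrane of mitochondria. The labels do not say how MIGA2 was depleted, whether the depleted or overexpressing cells are 1 clone, or which promoter drives MIGA2-GFP. Nor do they say whether a group's 3 libraries came from separate cultures. The p-values therefore cover the spread among these samples alone, and that spread may be technical. MIGA2-GFP cells at day 0 were not analysed here.

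Entry into mitosis is driven by Cdk1 bound to cyclins A and B, and exit by the anaphase-promoting complex (APC/C), which marks cyclins and other mitotic proteins for destruction. Most of the genes are transcribed in a wave from late S phase to mitosis, so in a mixed culture their mRNA follows how many cells are cycling. 3T3-L1 preadipocytes arrest at confluence, re-enter the cell cycle for a short time after induction (mitotic clonal expansion), and then leave it as they become adipocytes. Libraries here come from bulk RNA, in which fewer cycling cells and less mRNA per cycling cell cannot be told apart.

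Many mitotic promoters carry 2 short elements. The cell cycle genes homology region (CHR) is the site of the MuvB core, which works with DREAM in quiescent cells and with B-MYB and FOXM1 in cycling cells. The CCAAT box is bound by NF-Y. Promoter windows from 250 bases before to 50 bases after the transcription start (RefSeq, GRCm38.p6) were found for 33 of the 41 genes, as 35 windows. CHR was searched as TTTGAA or TTCGAA, and the CCAAT box as CCAAT, on both strands. Neither motif contains the other, though adjacent matches can share a base, and TTCGAA, which reads the same on both strands, was counted once. CHR letters were in 82.9% of the windows of the 41 genes, against 13.8% of the 12107 windows of tested genes and 19.2% of all 32851 windows. CCAAT letters were in 80.0%, against 38.3% and 37.4%, and both motifs together in 74.3%, against 5.79% and 7.52%. A match is a description of letters and no evidence of binding.

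The 4 promoters shown belong to the most highly expressed of the genes with a CHR match before the start. Each runs 5′ to 3′ on the gene's own strand, covers the 250 bases before the start, and has CHR and CCAAT matches in capitals, read on either strand (TTCAAA and ATTGG are the reverse forms). Cdk1 lies at chr10:69352913-69353162, Top2a at chr11:99024190-99024439, Ncapd2 at chr6:125191587-125191836 and Cdc20 at chr4:118437344-118437593, all on the reverse strand of GRCm38.p6.
Cdk1: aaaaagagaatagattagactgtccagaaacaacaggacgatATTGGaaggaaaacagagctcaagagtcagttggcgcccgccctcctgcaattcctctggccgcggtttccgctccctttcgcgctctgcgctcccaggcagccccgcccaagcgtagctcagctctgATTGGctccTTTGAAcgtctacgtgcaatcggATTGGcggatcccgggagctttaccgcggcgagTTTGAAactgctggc
Top2a: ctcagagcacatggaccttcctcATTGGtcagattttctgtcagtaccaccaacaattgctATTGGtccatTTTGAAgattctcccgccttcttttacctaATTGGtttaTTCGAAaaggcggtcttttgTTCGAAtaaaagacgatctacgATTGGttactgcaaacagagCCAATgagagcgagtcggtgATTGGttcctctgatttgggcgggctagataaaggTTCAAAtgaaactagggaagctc
Ncapd2: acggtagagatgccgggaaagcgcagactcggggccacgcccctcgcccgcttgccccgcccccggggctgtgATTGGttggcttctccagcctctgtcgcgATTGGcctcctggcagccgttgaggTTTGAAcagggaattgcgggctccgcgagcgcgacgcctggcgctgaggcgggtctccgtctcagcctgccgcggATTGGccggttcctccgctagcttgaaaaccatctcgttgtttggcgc
Cdc20: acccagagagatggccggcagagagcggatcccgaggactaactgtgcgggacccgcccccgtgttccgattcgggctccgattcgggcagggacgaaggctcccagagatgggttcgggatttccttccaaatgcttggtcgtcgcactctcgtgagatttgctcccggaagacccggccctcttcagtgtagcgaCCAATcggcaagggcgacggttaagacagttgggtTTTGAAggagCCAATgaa

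Top2a has 4 CHR and 6 CCAAT matches before its start, Cdk1 has 2 and 3, Ncapd2 has 1 and 3, and Cdc20 has 1 and 2. In Cdc20 the CHR match begins 18 bases before the start, and in Cdk1 the nearer one begins 15 bases before it. A CHR match between 100 bases before and 50 after the start was in 77.1% of the windows of the 41 genes, against 5.42% of the windows of tested genes. Mad2l1, Nusap1, Birc5, Ccnb1, Nuf2 and Cenpe had no CHR letters in their windows. An E2F motif (TTTCCCGC, TTTGGCGC, TTTGCCGC or TTTCGCGC, both strands) was in 8.57% of the windows of the 41 genes, against 3.9% of those of tested genes. Among the windows of 35 S phase and replication genes it was in 37.5%, while CHR letters were in 18.8%. A second list of mitotic genes had CHR letters in 60.7% of its windows.

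**Figure D1:**
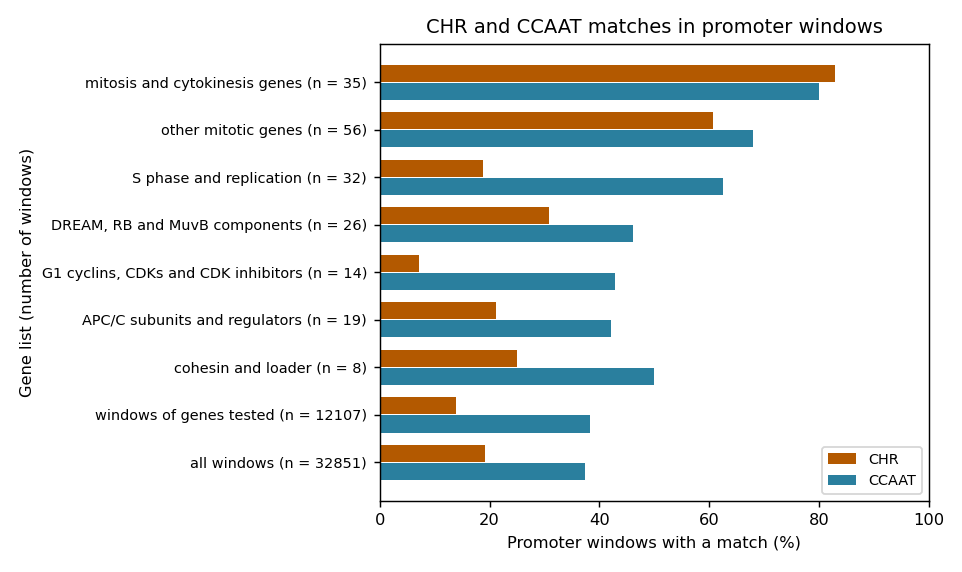
Share of RefSeq promoter windows (percent, x axis) that hold a CHR or a CCAAT match, for the 41 genes, 6 related gene lists, the windows of tested genes and all windows, with the number of windows beside each name. CHR letters are in 82.9% of the windows of the 41 genes and in 13.8% of those of tested genes.

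Total counts ran from 10748668 to 26003871 per library, with WT at day 0 the deepest group (19625147 to 26003871). Miga2 mRNA did not bear out several of the labels, and group names here are the labels' own. It stood at 925.7, 74.48 and 70.02 CPM (read counts scaled to library size with TMM factors) in MIGA2-KO at day 6. Replicate 1 of that group held more than any WT (145.2 to 181.8) or MIGA2-GFP (155.4 to 165.6) library of that day. The other pair of that group lay below WT. At day 0 MIGA2-KO (17.17 to 22.55 CPM) was not below WT (13.63 to 17.75), and at day 6 MIGA2-GFP overlapped WT (log2 fold change -0.02 ± 0.67, edgeR adjusted p = 0.985). With replicate 1 of MIGA2-KO at day 6 left out of the fit, MIGA2-GFP against WT gave -0.04 ± 0.12 (edgeR adjusted p = 0.831). In that fit MIGA2-KO against WT gave 0.39 ± 0.13 at day 0 and -1.16 ± 0.14 at day 6 (edgeR adjusted p = 0.0349 and 1.88e-05). Counts do not show whether the mRNA can be translated. Replicate 1 also stood apart from the other pair in WT at both days. Replicate 1 of MIGA2-KO at day 6 is called below the library labelled MIGA2-KO day 6 replicate 1. Counts of members called are given again without it, and without it and replicate 1 of WT at both days.

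The summed level of 8 adipocyte markers was at most 71.96 CPM in the WT and MIGA2-KO libraries of day 0. At day 6 it was 30050 to 43500 CPM in WT, 6008 to 9462 in MIGA2-KO and 19700 to 21400 in MIGA2-GFP. Each of the 8 was called higher over time in WT and in MIGA2-KO. The sum of 6 preadipocyte markers was 2338 to 2781 CPM in WT and 2541 to 2761 in MIGA2-KO at day 0, and it was between 550.4 and 1068 over the 9 libraries of day 6. Over time 5 of the 6 were called lower in WT, and in MIGA2-KO 4 were lower and 1 higher (log2 fold change 1.54). At day 6, 3 were lower and 1 higher in MIGA2-GFP than in WT. Of 6 macrophage markers, Ptprc was at 0 in all libraries and Adgre1 at or near 0. Their sum, 87.31 to 122.7 CPM at day 0 in WT and 23.42 to 43.04 at day 6 in the 3 lines, was mostly Lyz2 and Cd14. The sum of 4 endothelial markers was at most 1.221 CPM. Epcam and Cdh1 of 5 epithelial markers were at 0, and the sum reached 11.11 CPM in WT at day 6 through Krt18 and Krt8. Myod1 of 5 skeletal muscle markers was at 0, and the sum of 9.47 to 55.25 CPM was mostly Des, with Acta1 and Ckm adding to it in MIGA2-KO at day 6. The part of these markers in the values of the mitotic genes was not tested.

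The summed level of the 41 mitotic genes was highest in WT cells at day 0, where the 3 libraries held 356.6, 361.9 and 390.9 CPM. WT cells at day 6 held 239.4, 217.7 and 206.4 CPM. MIGA2-KO cells held 226.7, 233.8 and 234.3 CPM at day 0 and 225.2, 252.4 and 253.3 at day 6, and the libraries of the 2 days overlapped. The 3 MIGA2-GFP libraries, at 162.7, 169.9 and 173.5 CPM, were below all others. The sum is carried unevenly: in WT at day 0 Racgap1 made up 8.359% of it, Cdk1 7.032% and Tpx2 6.223%, while in MIGA2-GFP Smc4 (12.91%) and Cdk1 (11.96%) led. The genes are expressed at low levels, with a median over all libraries of 3.967 CPM against 25.98 for tested genes. Per kilobase of the longest annotated transcript, mean levels were highest for Cdk1 (5.851 CPM per kilobase), Smc4 (5.491), Racgap1 (4.017) and Tpx2 (3.607), and lowest for Cenpf (0.1743) and Cenpe (0.2361). Of the 41, 28 were at or above the filter's level of 0.823 CPM in all 15 libraries. Cdc25c reached that level in 5 libraries, among them all 3 of WT at day 0. It passed the filter only through that group, where it was highest. The lowest value was a count of 1, for Cdc25c in a WT day 6 library.

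**Figure D2:**
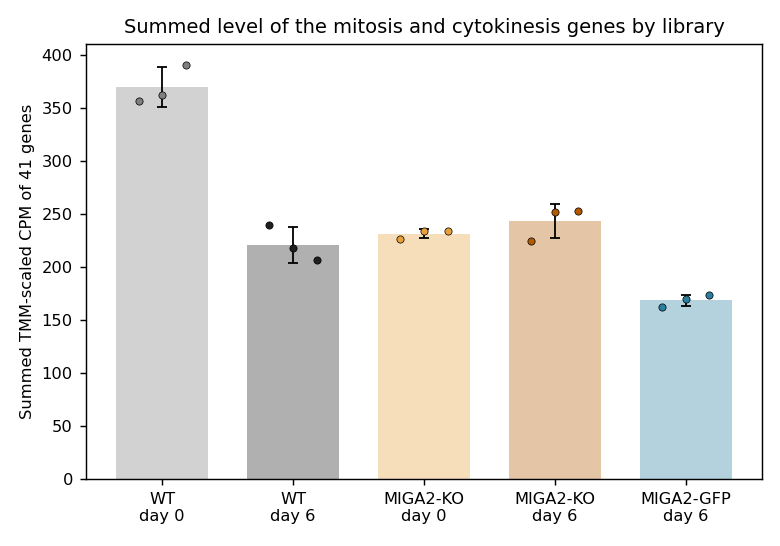
Summed level of the 41 genes (TMM-scaled CPM, y axis) in each library (points) of the 5 groups, with the group mean (bars) and SD of 3 libraries (error bars). The WT day 0 libraries lie between 356.6 and 390.9 and the MIGA2-GFP libraries between 162.7 and 173.5.

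During differentiation of WT cells, 32 of the 41 genes fell and 1, Nusap1, rose, with a median log2 fold change of -1.11. Calls are at an adjusted p under 0.05 in edgeR's quasi-likelihood test with Benjamini-Hochberg adjustment over all tested genes. Of all tested genes 33.0% fell and 31.6% rose in this comparison (64.7% either way), with a median of -0.04. In MIGA2-KO cells the same interval brought 5 genes up (Ccna2, Cdk1, Ube2c, Birc5 and Nusap1) and 3 down (Foxm1, Kif20a and Tpx2), with a median of 0.03, where 44.1% of all tested genes were called (23.2% higher and 20.9% lower). With the library labelled MIGA2-KO day 6 replicate 1 left out the calls were 4 up and 1 down, and Birc5, Tpx2 and Kif20a were those lost. Without replicate 1 of WT at both days as well, 33 fell and 3 rose in WT, and 5 fell and 6 rose in MIGA2-KO, while 79.8% and 58.9% of all tested genes were called.

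The lines differed at the start of differentiation. At day 0, 30 of the 41 genes were lower in MIGA2-KO than in WT and none was higher, with a median log2 fold change of -0.94, while 17.7% of all tested genes were lower and 16.0% higher (33.7% either way). At day 6, 11 genes were higher in MIGA2-KO than in WT and 3 lower, with a median of 0.16. Of all tested genes 29.1% were higher and 31.5% lower (60.6% either way), so the share of members called was below the background. The members have lower levels than tested genes at large (median 3.967 against 25.98 CPM). The part of level in this share was not tested. The number of genes called at day 6 and their median log2 fold change depended on the processing. With a correction for GC content and transcript length 8 were higher and 5 lower, and the median was -0.05. With the library labelled MIGA2-KO day 6 replicate 1 left out there were 12 higher and 4 lower. Without replicate 1 of WT at both days as well there were 15 higher and 6 lower at day 6, and 1 higher and 34 lower at day 0, while the share of all tested genes called rose to 73.4% and 49.4%. Bub1, Ccna2, Cdc25c, Ncapg, Racgap1 and Spc25 (6 genes) were called lower in MIGA2-KO at day 0 and higher at day 6, and Cdc20, Cenpa and Ube2c (3 genes) lower at both days. Each of the first 6 lost its day 6 call under at least 1 alternative: Spc25 in 15 of 24, Cdc25c in 7 of 23, Bub1 and Ncapg in 6 of 24 each, Racgap1 with the GC correction (0.16) and Ccna2 with voom weights. Cdc25c passed the low-count filter only through WT at day 0. Cenpa kept its day 6 call under all 24, while Cdc20 and Ube2c lost theirs with the GC correction.

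The change over time differed between the lines for 25 of the 41 genes, each with the change in MIGA2-KO above that in WT, and none the other way. The background was 13.6% of tested genes in that direction and 27.1% in either. The median difference of log2 fold changes was 1.11, against 0.02 over all tested genes, and all 41 values were above 0, from 0.08 (Plk1) to 2.94 (Cdc25c, which passed the filter only through WT at day 0). This difference shares its libraries with the comparisons above and restates their contrast as a test. With the library labelled MIGA2-KO day 6 replicate 1 left out it was called for 26 genes, and for 34 without the 3 libraries that stood apart, where 61.6% of tested genes were called. With limma voom quality weights it was called for 15. Of the 28 genes at or above the filter's level in all libraries, 14 were called.

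**Figure D3:**
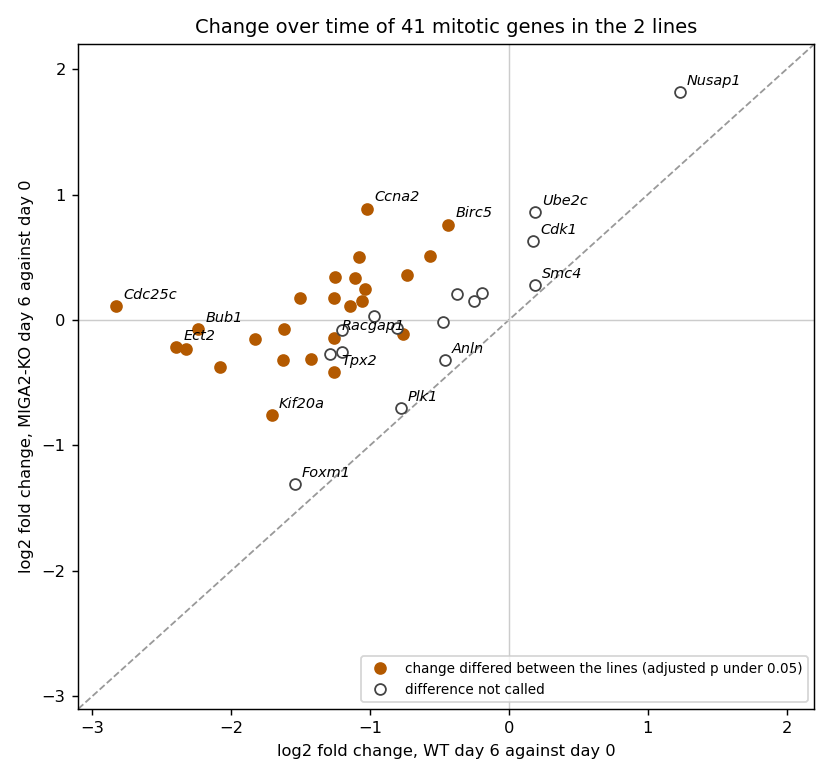
Log2 fold change from day 0 to day 6 in WT (x axis) and MIGA2-KO (y axis) for each of the 41 genes (points), filled where the difference between the lines had an adjusted p under 0.05, with the line of equal change dashed. The points lie above the dashed line, and Plk1, Smc4, Anln and Foxm1 lie closest to it.

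The libraries themselves gave a similar picture without a model. In WT the 3 libraries of day 6 lay below all 3 of day 0 for 31 of the 41 genes and above them for 1, against 28.9% and 28.7% of tested genes (57.5% either way). Over the same interval MIGA2-KO had 9 genes with day 6 above and 5 with day 6 below, against 33.5% and 32.2% (65.7% either way), and the days overlapped for 27. At day 0 MIGA2-KO lay wholly below WT for 32 genes and above for 1, against 25.6% and 25.4% (51.0% either way). At day 6 it lay wholly above WT for 10 and below for 4, against 30.2% and 31.7% (61.9% either way). MIGA2-GFP lay wholly below WT for 15 genes and above for 1 (25.1% and 25.2% of tested genes, 50.3% either way). It lay wholly below MIGA2-KO for 22 and above for 1 (33.4% and 35.7%, 69.1% either way).

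MIGA2-GFP cells had the lowest levels at day 6. Against WT, 15 of the 41 genes were lower and none higher, with a median log2 fold change of -0.48, while 18.7% of all tested genes were lower and 16.3% higher (35.0% either way). Against MIGA2-KO, 19 were lower and 1, Anln, was higher, with a median of -0.58, while 22.4% of tested genes were lower and 25.3% higher (47.7% either way). The comparisons share the MIGA2-GFP libraries. With the library labelled MIGA2-KO day 6 replicate 1 left out the counts against MIGA2-KO were 21 lower and 1 higher. Without replicate 1 of WT at both days as well, 13 were lower and 2 higher against WT, with a median of -0.34. Against MIGA2-KO 25 were then lower and 1 higher, with a median of -0.71. The shares of all tested genes called rose to 61.3% and 66.6%. The call count against WT was less stable: 6 genes were lower without MIGA2-GFP replicate 1 and 7 with library sizes taken as plain totals. Scaled by totals, the median log2 fold change of all tested genes was 0.181 in this comparison, against 0.002 with TMM. It was -0.43 in WT over time, -0.15 and 0.24 in MIGA2-KO against WT at days 0 and 6, and 0.39 in the difference of changes. With TMM these medians were -0.04, -0.03, -0.01 and 0.02.

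**Figure D4:**
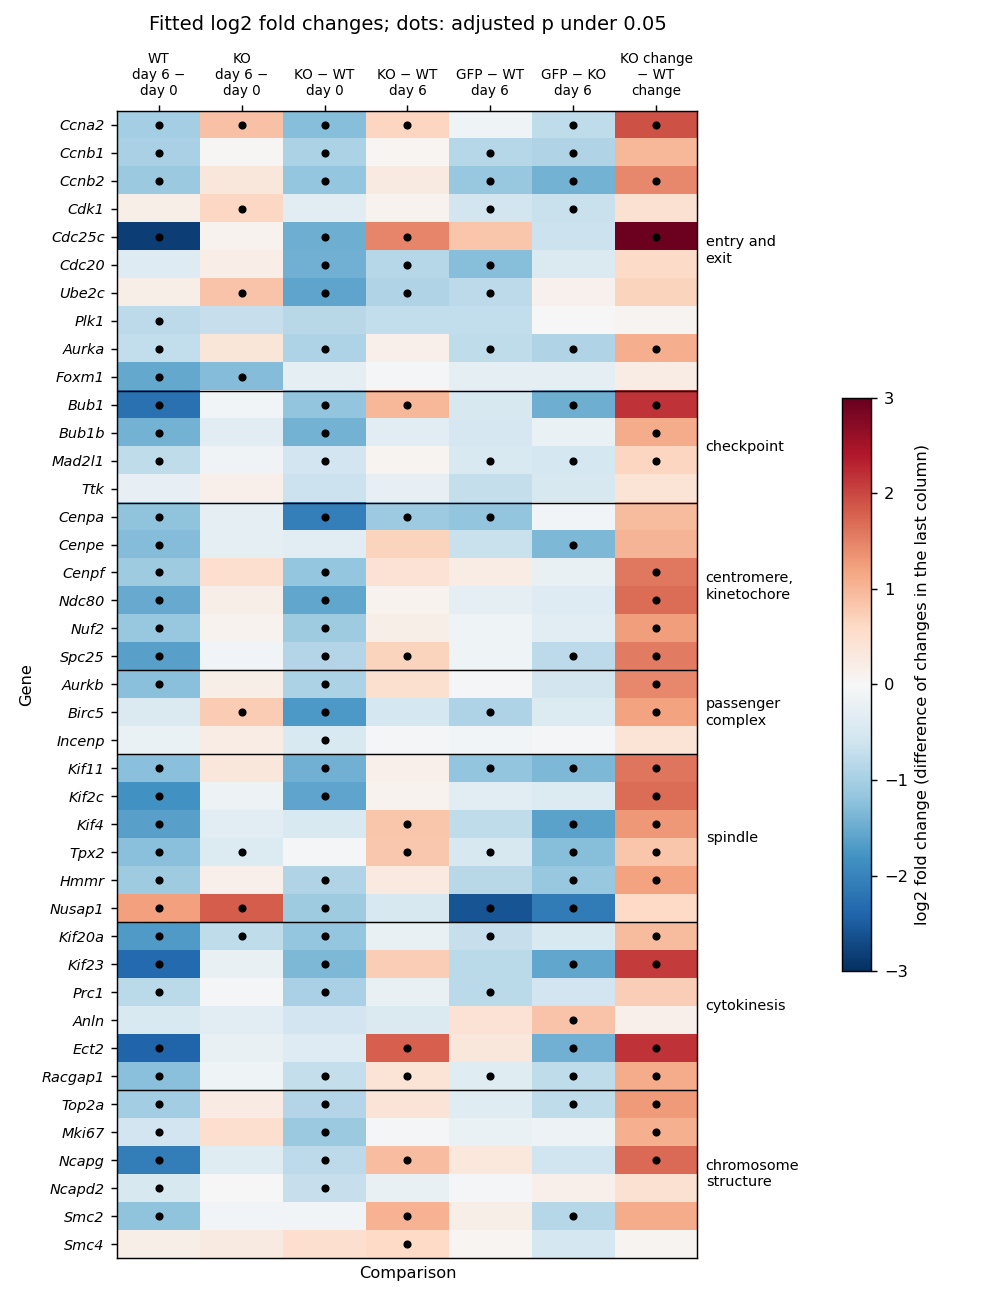
Fitted log2 fold changes (colour) of the 41 genes (rows, grouped by role) in 6 comparisons and the difference of the changes over time (columns), with a dot where the edgeR adjusted p is under 0.05. The first column is mostly blue (32 genes fell in WT), the second has 8 dots, and the last column is red or white throughout.

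Of the 10 regulators of entry and exit, 7 fell in WT. Ccna2, which encodes cyclin A2 (ENSMUSG00000027715, chr3:36564865-36572150, reverse strand), held 9.809, 8.91 and 11.02 CPM in WT at day 0 and 4.612, 5.166 and 4.853 at day 6. In MIGA2-KO it held 4.414, 3.594 and 4.298 CPM at day 0 and 6.694, 8.157 and 7.925 at day 6. The order of the days was therefore opposite in the 2 lines, and within each line the days did not overlap. Ccna2 fell in WT (log2 fold change -1.02 ± 0.18 SE, edgeR adjusted p = 0.00015) and rose in MIGA2-KO (0.89 ± 0.19, edgeR adjusted p = 0.00126, and 0.97 with the library labelled MIGA2-KO day 6 replicate 1 left out). The difference of changes, 1.91 ± 0.26 (edgeR adjusted p = 0.000101), had the smallest adjusted p of the 41 genes. In MIGA2-GFP, Ccna2 was at 4.44, 3.359 and 5.617 CPM, which overlapped WT at day 6. Ccna2 overlaps Exosc9 on the opposite strand.

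Cdk1, the kinase that drives entry into mitosis (ENSMUSG00000019942, chr10:69335146-69352938, reverse strand), did not follow the majority. It held 29.85, 23.14 and 25.02 CPM in WT at day 0 and 28.39, 32.07 and 27.66 at day 6, which overlapped (log2 fold change 0.18 ± 0.13, edgeR adjusted p = 0.246). In MIGA2-KO it rose from 18.54, 23.4 and 19.79 CPM to 30.78, 32.05 and 32.74 (0.63 ± 0.13, edgeR adjusted p = 0.0013). In MIGA2-GFP it was at 17.51, 21.6 and 21.42 CPM, with all 3 libraries below those of WT and MIGA2-KO at day 6. Foxm1, a transcription factor that activates mitotic genes (ENSMUSG00000001517, chr6:128362967-128376146, forward strand), fell in both lines. Its levels went from 8.96, 13.75 and 13.26 CPM to 5.697, 3.216 and 3.397 in WT, and from 8.988, 9.023 and 11.84 to 3.565, 4.367 and 4.093 in MIGA2-KO. The changes were -1.54 ± 0.25 in WT (edgeR adjusted p = 6.69e-05) and -1.31 ± 0.25 in MIGA2-KO (edgeR adjusted p = 0.000646), and their difference was not called (0.23 ± 0.35, edgeR adjusted p = 0.661). Foxm1 overlaps Tex52 and Gm44596 on the same strand, which hold 123 and 101 counts over all libraries against 1682 for Foxm1.

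Cdc20, an activator of the APC/C (ENSMUSG00000006398, chr4:118432901-118437352, reverse strand), separated the lines rather than the days. It held 13.25, 9.96 and 9.818 CPM in WT at day 0 and 5.787, 9.844 and 9.804 at day 6, against 4.013, 3.976 and 4.217 in MIGA2-KO at day 0 and 3.999, 5.438 and 4.616 at day 6. All MIGA2-KO libraries were below all WT libraries, and the difference was called at day 0 (-1.43 ± 0.22, edgeR adjusted p = 0.000278) and at day 6 (-0.85 ± 0.22, edgeR adjusted p = 0.00452). With the correction for GC content and transcript length the day 6 value was -0.18 and not called (edgeR adjusted p = 0.375). Cdc20 lies on the opposite strand of Elovl1, which holds 34782 counts over all libraries against 1520 for Cdc20. The libraries were made with a stranded kit per the labels, but with a strand setting of the counting not given in the sources used here, reads of the 2 genes may not be fully separated. Ube2c, the APC/C's ubiquitin-conjugating enzyme, had the same order (-1.58 ± 0.25 at day 0 and -0.91 ± 0.24 at day 6, edgeR adjusted p = 0.000342 and 0.00453), and in MIGA2-KO it rose over time (0.86 ± 0.26, edgeR adjusted p = 0.0155). The day 6 call was lost with the GC correction (-0.38, edgeR adjusted p = 0.0889), and the rise was not called without MIGA2-KO day 0 replicate 1 or replicate 3 (edgeR adjusted p up to 0.0584).

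Among the other regulators, Ccnb1 and Ccnb2 (cyclins B1 and B2) fell in WT by 0.97 and 1.11 on the log2 scale and gave 0.03 and 0.33 in MIGA2-KO. Ccnb1 has near-identical pseudogenes, none of which is among the counted identifiers, so its counts may include or miss their reads. Aurka, the kinase of the spindle poles, gave -0.73 in WT and 0.35 in MIGA2-KO. Cdc25c, the phosphatase that activates Cdk1, gave the largest fitted change in WT (-2.83 ± 0.46), from 137 counts over the 3 libraries at day 0 to 8 at day 6, and its level rests on few reads. It passed the filter only through WT at day 0, the higher group of that comparison. Plk1, a kinase of many mitotic steps, had the largest adjusted p of the calls in WT (-0.78 ± 0.32, edgeR adjusted p = 0.0453, and 0.000471 to 0.207 over the alternatives), and the days overlapped.

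Of the 4 spindle checkpoint genes, which hold back anaphase until all chromosomes are attached, 3 fell in WT and none was called over time in MIGA2-KO. Bub1b, encoding BubR1 (ENSMUSG00000040084, chr2:118598211-118641591, forward strand), held 10.23, 10.1 and 11.97 CPM in WT at day 0 and 4.883, 3.801 and 3.3 at day 6. MIGA2-KO had 3.852, 3.9 and 4.298 CPM at day 0 and 2.521, 4.202 and 2.961 at day 6, so that WT at day 0 stood above all other libraries. The fall in WT was -1.42 ± 0.19 (edgeR adjusted p = 1.27e-05), and MIGA2-KO at day 0 was below WT by a similar -1.42 ± 0.19 (edgeR adjusted p = 0.000102), with WT day 0 shared by both comparisons. Bub1, its kinase relative (ENSMUSG00000027379, chr2:127801122-127831865, reverse strand), held 3.254, 3.523 and 4.018 CPM in WT at day 0 and 1.175, 0.4873 and 0.5824 at day 6. It fell by 2.24 ± 0.28 on the log2 scale in WT (edgeR adjusted p = 6.01e-06) and gave -0.07 ± 0.28 in MIGA2-KO, where it held 1.685, 1.529 and 1.541 CPM at day 0 and 1.565, 1.73 and 1.219 at day 6. At day 6 all 3 MIGA2-KO libraries were above all 3 of WT, which held only 13, 5 and 6 counts.

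Mad2l1, the checkpoint effector that binds Cdc20 (ENSMUSG00000029910, chr6:66535390-66547220, forward strand), had the highest mean level of the 4. WT libraries held 10.7, 10.4 and 13.71 CPM at day 0 and 6.601, 7.408 and 6.503 at day 6, which did not overlap. The MIGA2-KO libraries, at 8.266, 7.341 and 7.785 CPM and then 8.086, 6.344 and 7.228, overlapped. Mad2l1 fell in WT (-0.76 ± 0.15, edgeR adjusted p = 0.000346), a call lost with the correction for GC content and transcript length, and a near-identical pseudogene is not among the counted identifiers. Ttk, the kinase that starts checkpoint signalling, passed in none of the comparisons, with levels of 0.427 to 2.03 CPM.

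All 6 genes of the centromere and kinetochore fell in WT, by 1.08 to 1.62 on the log2 scale, and none was called over time in MIGA2-KO, where values ran from -0.27 to 0.50. Cenpa, the histone H3 variant that marks centromeres (ENSMUSG00000029177, chr5:30666777-30674830, forward strand), held 12.02, 7.521 and 8.326 CPM in WT at day 0 and 3.255, 4.678 and 4.174 at day 6. The MIGA2-KO libraries were at 2.408, 2.447 and 1.865 CPM at day 0 and 1.217, 2.554 and 1.829 at day 6. The MIGA2-KO libraries were below the WT libraries at both days, by -2.04 ± 0.27 at day 0 (edgeR adjusted p = 8.85e-05), the largest such difference among the 41 genes, and by -1.10 ± 0.30 at day 6 (edgeR adjusted p = 0.00539). MIGA2-GFP, at 2.22, 1.298 and 1.809 CPM, was at the level of MIGA2-KO and below WT (-1.19 ± 0.30, edgeR adjusted p = 0.00805).

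Spc25, a subunit of the NDC80 complex that binds microtubules (ENSMUSG00000005233, chr2:69193895-69206194, reverse strand), held 5.234, 3.591 and 5.012 CPM in WT at day 0 and 1.175, 1.462 and 1.844 at day 6. MIGA2-KO libraries had 2.568, 2.294 and 2.595 CPM at day 0 and 1.826, 2.554 and 2.7 at day 6, without a gap between the days. The difference of changes was 1.55 ± 0.35 (edgeR adjusted p = 0.00482). Ndc80 and Nuf2, of the same complex, gave differences of 1.68 ± 0.53 and 1.26 ± 0.36 (edgeR adjusted p = 0.0295 and 0.0173), and these calls were lost in 8 and 2 of 24 alternatives. Cenpf, a kinetochore protein of G2 and mitosis (chr1:189640606-189688086, reverse strand), held 1.886, 3.523 and 3.935 CPM in WT at day 0 and 2.17, 0.9747 and 1.262 at day 6, and replicate 1 of the 2 days overlapped. It was called in WT (-1.08 ± 0.36, edgeR adjusted p = 0.0161), and not without WT day 0 replicate 3, WT day 6 replicate 2 or WT day 6 replicate 3, nor with voom weights, a fit to only the groups compared or the GC correction. Cenpe, a kinetochore motor, fell in WT by 1.29 ± 0.30 on the log2 scale (edgeR adjusted p = 0.00172).

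The 3 genes of the chromosomal passenger complex, which corrects faulty attachments and then moves to the midzone, were all lower in MIGA2-KO at day 0. Birc5, encoding survivin (ENSMUSG00000017716, chr11:117849251-117855743, forward strand), held 9.714, 5.861 and 5.427 CPM in WT at day 0 and 3.798, 6.823 and 4.853 at day 6, which overlapped. Levels in MIGA2-KO were 1.926, 2.141 and 2.271 CPM at day 0 and 3.391, 3.955 and 3.396 at day 6, with the days apart. The difference at day 0 was -1.72 ± 0.26 (edgeR adjusted p = 0.00029). The rise in MIGA2-KO was 0.76 ± 0.28 (edgeR adjusted p = 0.0403), a call lost with the library labelled MIGA2-KO day 6 replicate 1 left out (0.80, edgeR adjusted p = 0.0671) and in 12 of 24 alternatives in all. Aurkb, the complex's kinase (chr11:69045647-69051664, forward strand), held 4.951, 3.252 and 3.48 CPM in WT at day 0 and 1.537, 1.754 and 1.553 at day 6, and 2.568, 1.606 and 1.865 against 1.913, 2.801 and 2.09 in MIGA2-KO. It fell in WT by 1.26 ± 0.25 on the log2 scale (edgeR adjusted p = 0.000461). Incenp, the scaffold (chr19:9872296-9899551, reverse strand), varied least of the 41 genes over the 15 libraries, by SD relative to the mean. WT libraries held 11.45 to 12.43 CPM at day 0 and 10.23 to 10.87 at day 6, MIGA2-KO libraries 8.507 to 9.164 and 9.318 to 10.61, and MIGA2-GFP libraries 9.39 to 10.47. Of the comparisons made, Incenp was called only at day 0 between the lines (-0.46 ± 0.11, edgeR adjusted p = 0.00665).

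**Figure D5:**
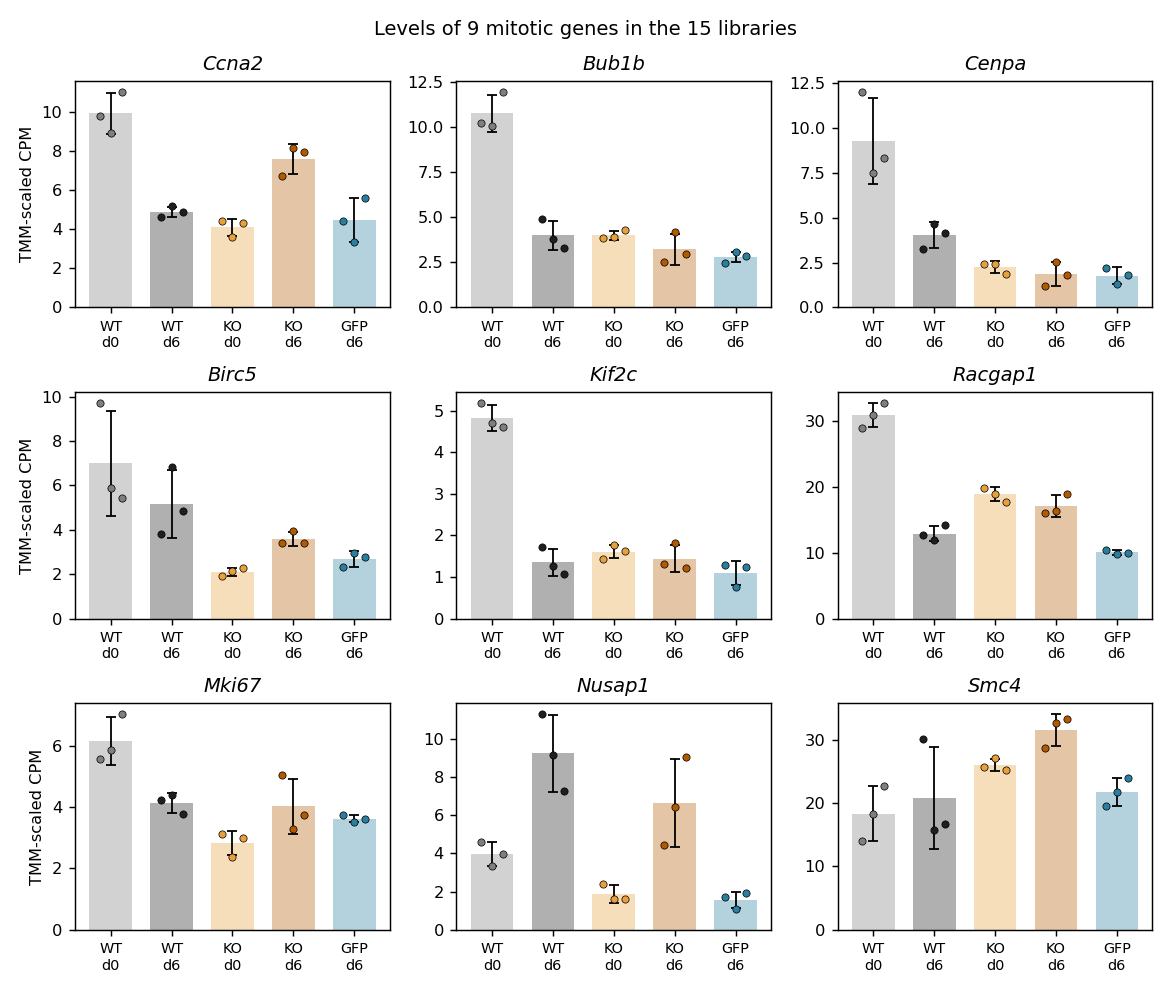
Levels (TMM-scaled CPM, y axes, each from 0) of 9 of the genes in the 15 libraries (points), with group means (bars) and SD of 3 libraries (error bars). Ccna2, Bub1b, Cenpa, Kif2c and Racgap1 are highest in WT at day 0, while Nusap1 is higher at day 6 than at day 0 in both lines.

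Of the 6 spindle motors and assembly factors, 5 fell in WT. Tpx2, which activates Aurora A and nucleates microtubules (ENSMUSG00000027469, chr2:152847964-152895321, forward strand), held 23.63, 21.34 and 24.07 CPM in WT and 22.15, 22.56 and 22.55 in MIGA2-KO at day 0, which overlapped. At day 6 it held 11.39, 8.675 and 8.736 CPM in WT, 14.35, 18.13 and 17.85 in MIGA2-KO, and 7.173, 6.794 and 6.76 in MIGA2-GFP, and the 3 lines did not overlap. Tpx2 fell in WT by 1.26 ± 0.13 on the log2 scale (edgeR adjusted p = 9.97e-07). In MIGA2-KO it fell by 0.42 ± 0.13 (edgeR adjusted p = 0.0165), a call lost with the library labelled MIGA2-KO day 6 replicate 1 left out (edgeR adjusted p = 0.0692). Tpx2 in MIGA2-GFP was below MIGA2-KO by -1.28 ± 0.14 (edgeR adjusted p = 6.45e-06).

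Kif2c, a microtubule depolymerase of the centromere (ENSMUSG00000028678, chr4:117159639-117182639, reverse strand), held 5.187, 4.709 and 4.598 CPM in WT at day 0 and 1.718, 1.267 and 1.068 at day 6. MIGA2-KO was already at 1.445, 1.759 and 1.622 CPM at day 0 and stayed within 1.219 to 1.813 at day 6. Its change in WT was -1.82 ± 0.24 (edgeR adjusted p = 9.07e-06), and the MIGA2-KO difference at day 0 was -1.58 ± 0.23 (edgeR adjusted p = 0.00018). Kif11, the motor that separates spindle poles, and Hmmr, a spindle protein, gave differences of change of 1.60 ± 0.42 and 1.21 ± 0.43, and the call for Hmmr was lost in 17 of 24 alternatives. Kif4, a chromosome-bound motor that overlaps Pdzd11 on the opposite strand, fell in WT by 1.63 ± 0.25.

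Nusap1, a microtubule-bundling protein of the spindle (ENSMUSG00000027306, chr2:119618298-119651244, forward strand), was the only 1 of the 41 genes called higher over time in WT. It rose from 4.574, 3.32 and 3.977 CPM to 11.3, 9.162 and 7.28 in WT, and from 2.408, 1.606 and 1.622 to 4.434, 6.427 and 9.057 in MIGA2-KO. In MIGA2-GFP it stood at 1.708, 1.069 and 1.904 CPM, below each library of the other 2 lines at day 6. The changes were 1.23 ± 0.26 in WT (edgeR adjusted p = 0.000804) and 1.82 ± 0.30 in MIGA2-KO (edgeR adjusted p = 0.000178), and MIGA2-GFP was below WT by -2.58 ± 0.31 (edgeR adjusted p = 5.63e-05), the largest such difference among the 41 genes. Nusap1 overlaps Oip5 on the opposite strand, which holds 226 counts over all libraries against 943 for Nusap1.

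Of the 6 genes of the central spindle and cytokinesis, 5 fell in WT, and Kif20a was the 1 called over time in MIGA2-KO. Racgap1, a subunit of centralspindlin (ENSMUSG00000023015, chr15:99620496-99651656, reverse strand), held 29.0, 31.0 and 32.73 CPM in WT at day 0 and 12.66, 11.89 and 14.17 at day 6. In MIGA2-KO it held 19.9, 18.96 and 17.76 CPM at day 0 and 16.0, 16.4 and 18.98 at day 6. MIGA2-KO thus lay between the 2 WT days at both times. Its change in WT, -1.26 ± 0.11 (edgeR adjusted p = 1.88e-07), had the smallest adjusted p of the 41 genes in that comparison, and the change in MIGA2-KO was -0.14 ± 0.11 (edgeR adjusted p = 0.342). MIGA2-GFP, at 10.42, 9.771 and 9.997 CPM, was below both other lines at day 6. Kif23, the motor of centralspindlin, fell in WT by 2.32 ± 0.29 on the log2 scale (edgeR adjusted p = 5.05e-06) and gave -0.23 ± 0.29 in MIGA2-KO. Its WT libraries of day 6 held only 14, 14 and 7 counts.

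Ect2, the RhoA exchange factor that starts the cleavage furrow (ENSMUSG00000027699, chr3:27097222-27153878, reverse strand), held 2.971, 4.641 and 4.391 CPM in WT at day 0 and 1.085, 0.9747 and 0.1941 at day 6. Ect2 in MIGA2-KO was at 2.247, 3.67 and 3.325 CPM at day 0 and 2.956, 2.554 and 2.438 at day 6. The lines overlapped at day 0 and were apart at day 6 (1.80 ± 0.40, edgeR adjusted p = 0.00143). The WT level at day 6 rests on few reads, with 12, 10 and 2 counts in its libraries. MIGA2-GFP, at 0.7685, 1.069 and 1.047 CPM, overlapped WT. Kif20a, the motor that carries the passenger complex to the midzone, fell in WT from 20.51, 21.78 and 19.88 CPM to 9.133, 4.386 and 5.436, and in MIGA2-KO from 8.908, 8.487 and 10.3 to 4.26, 6.427 and 5.661. The fall was -1.71 ± 0.22 in WT (edgeR adjusted p = 7.52e-06) and -0.76 ± 0.23 in MIGA2-KO (edgeR adjusted p = 0.0139, and 0.0612 with the library labelled MIGA2-KO day 6 replicate 1 left out, and the call was also lost without MIGA2-KO day 0 replicate 3). Kif20a overlaps Cdc23 on the opposite strand. Prc1, which bundles midzone microtubules, fell in WT by 0.80 ± 0.25, a call lost without WT day 6 replicate 3 and with voom weights or a fit to only the groups compared. Anln, encoding the furrow scaffold anillin, was not called over time in either line, and at 13.71 to 14.05 CPM in MIGA2-GFP it was above MIGA2-KO (5.273 to 10.26 CPM, 0.85 ± 0.24, edgeR adjusted p = 0.0103, and not called without MIGA2-KO day 6 replicate 2).

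Of the 6 genes of chromosome structure, 5 fell in WT and none was called over time in MIGA2-KO. Mki67, encoding the proliferation marker Ki-67 (ENSMUSG00000031004, chr7:135689784-135716361, reverse strand), held 5.565, 5.861 and 7.042 CPM in WT at day 0 and 4.25, 4.386 and 3.786 at day 6. MIGA2-KO libraries were at 3.13, 2.37 and 3.001 CPM at day 0 and 5.043, 3.296 and 3.745 at day 6. The days did not overlap in either line, but the change was called in WT (-0.57 ± 0.18, edgeR adjusted p = 0.0131, a call lost without WT day 0 replicate 3 and with voom weights, a fit to only the groups compared or the GC correction) and not in MIGA2-KO (0.51 ± 0.20, edgeR adjusted p = 0.0519). The difference of changes was 1.08 ± 0.27 (edgeR adjusted p = 0.00886). Top2a, which untangles sister chromatids, had a difference of changes of 1.28 ± 0.24 (edgeR adjusted p = 0.0015).

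The condensin subunits differed among themselves. Ncapg (ENSMUSG00000015880, chr5:45669919-45700546, forward strand) held 4.008, 4.709 and 6.172 CPM in WT at day 0 and 1.175, 1.365 and 0.9706 at day 6, and 2.247, 3.364 and 3.001 against 1.391, 2.554 and 2.7 in MIGA2-KO. It fell in WT by 2.08 ± 0.29 on the log2 scale (edgeR adjusted p = 1.9e-05), and Ncapd2 fell by 0.47 ± 0.12 (edgeR adjusted p = 0.00269). Smc4, an ATPase shared by both condensins (ENSMUSG00000034349, chr3:69004738-69034623, forward strand), held 13.96, 18.33 and 22.66 CPM in WT at day 0 and 30.11, 15.69 and 16.7 at day 6. It held 25.68, 27.14 and 25.22 CPM in MIGA2-KO at day 0 and 28.69, 32.63 and 33.35 at day 6, and 19.55, 21.76 and 23.99 in MIGA2-GFP.

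Both WT groups were widely spread for Smc4, with replicate 1 lowest at day 0 and highest at day 6. WT over time gave 0.19 ± 0.22 (edgeR adjusted p = 0.47). Its partner Smc2 (chr4:52439243-52488260, forward strand) held 4.386, 8.673 and 9.735 CPM in WT at day 0 and 3.888, 2.144 and 3.883 at day 6, again with replicate 1 lowest at day 0. In MIGA2-KO it held 8.025, 6.652 and 6.974 CPM at day 0 and 6.347, 6.509 and 7.664 at day 6. Smc2 fell in WT (-1.20 ± 0.29, edgeR adjusted p = 0.00221) and was higher in MIGA2-KO than in WT at day 6 (1.04 ± 0.30, edgeR adjusted p = 0.00813), a call lost with the GC correction (0.37, edgeR adjusted p = 0.174). The same libraries stood apart in the summed level of 10 genes of cohesin, the ring that holds sister chromatids: 379.0, 557.9 and 637.8 CPM in WT at day 0 and 621.2, 428.6 and 453.4 at day 6, against 733.6 to 756.9 and 749.5 to 801.5 in MIGA2-KO.

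A second list of 60 other mitotic genes, of which 56 were tested, followed the 41. In WT 35 fell and 5 rose (median -1.06), in MIGA2-KO 5 fell and 6 rose (median 0.00), and at day 0 31 were lower in MIGA2-KO and 1 higher (median -0.81). The shares called were 71.4%, 19.6% and 57.1%, against 64.7%, 44.1% and 33.7% of all tested genes. Gtse1, a regulator of p53 and microtubules in G2, fell in both lines, by 3.96 ± 0.30 in WT and 2.52 ± 0.28 in MIGA2-KO on the log2 scale (edgeR adjusted p = 3.01e-08 and 4.26e-06). Ckap2, a spindle-pole protein, fell in both as well (edgeR adjusted p = 3.06e-07 and 4.03e-06). Its relative Ckap2l fell in WT (-1.07 ± 0.19, edgeR adjusted p = 0.000143) and rose in MIGA2-KO (0.52 ± 0.20, edgeR adjusted p = 0.0431), the order seen in Ccna2. Cdca3, a trigger of mitotic entry, was not called in WT over time (0.06 ± 0.16, edgeR adjusted p = 0.744) and was lower in MIGA2-KO at both days (-1.63 ± 0.18 and -0.91 ± 0.18, edgeR adjusted p = 2.18e-05 and 0.000495).

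The 35 genes of S phase and replication moved less evenly. In WT 16 fell and 7 rose (median -0.47), in MIGA2-KO 6 fell and 10 rose (median 0.09), and at day 0 24 were lower in MIGA2-KO and 1 higher (median -0.67). The shares called over time, 65.7% in WT and 45.7% in MIGA2-KO, were near the 64.7% and 44.1% of all tested genes. At day 0 the share was 71.4%, against 33.7%. Mcm2, Mcm3 and Mcm5, subunits of the replicative helicase, fell in WT by 1.68 ± 0.12, 1.37 ± 0.13 and 1.28 ± 0.16 on the log2 scale. Cdc45, which completes that helicase, rose in WT (1.75 ± 0.16, edgeR adjusted p = 2.06e-07) and in MIGA2-KO (1.21 ± 0.18, edgeR adjusted p = 7.22e-05).

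Regulators of the mitotic wave and of G1 were counted as well. Of 20 tested DREAM, RB and MuvB components, 6 fell and 3 rose in WT and 3 rose in MIGA2-KO. The share called in WT was 45.0%, below the 64.7% of all tested genes. In MIGA2-KO the share was likewise below the 44.1% of all tested genes. Lin52 and Lin9, both of the MuvB core, rose in WT by 1.15 ± 0.16 and 1.10 ± 0.18 (edgeR adjusted p = 1.89e-05 and 8.39e-05). E2f4, the main E2F of quiescent cells, and Nfyc, an NF-Y subunit, were lower in MIGA2-KO at day 0 (-0.68 ± 0.13 and -0.74 ± 0.14, edgeR adjusted p = 0.00123 and 0.00131). Of 12 tested G1 cyclins, CDKs and CDK inhibitors, 5 fell and 4 rose in each line, which is 75.0% called, against the same 64.7% and 44.1%. Cdkn2c, the inhibitor p18, rose in both lines (2.59 ± 0.16 in WT and 1.61 ± 0.17 in MIGA2-KO, edgeR adjusted p = 3.77e-09 and 1.76e-06) and was lower in MIGA2-KO at day 6 (-1.97 ± 0.16, edgeR adjusted p = 2.76e-07). Cdkn2b, the inhibitor p15, fell in both (-1.64 ± 0.15 and -0.51 ± 0.15, edgeR adjusted p = 2.57e-07 and 0.0121).

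Of 17 genes of the APC/C and its regulators, 5 fell and 2 rose in WT, 2 fell and 2 rose in MIGA2-KO, and 8 were lower and none higher in MIGA2-KO at day 0. The shares called were 41.2%, 23.5% and 47.1%, against 64.7%, 44.1% and 33.7% of all tested genes. Cdc16, an APC/C subunit, was lower in MIGA2-KO by the same -0.84 ± 0.09 at both days (edgeR adjusted p = 1.75e-05 and 3.37e-06). Of the 10 cohesin genes 5 were higher and 1 lower in MIGA2-KO at day 0 (median 0.51), and 7 higher and 1 lower at day 6 (median 0.78), opposite in sign to the 41 genes at day 0. Their shares called were 60.0% and 80.0%, against 33.7% and 60.6% of all tested genes. Stag2, a cohesin subunit, gave 0.94 ± 0.23 and 1.40 ± 0.23 (edgeR adjusted p = 0.00636 and 0.000154). These cohesin values set MIGA2-KO against the widely spread WT libraries described above.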

How the data were processed

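The labels describe a stranded TruSeq protocol for 15 RNA samples. Per the submitters' processing notes, bcl2fastq 2.19, Trimmomatic, STAR 2.5.4b, featureCounts and edgeR were used with genome build GRCm38.p5. The deposited files hold raw read counts for 25700 Ensembl identifiers, untouched by normalization. Symbols and positions came from GENCODE (GRCm38). Genes passing filterByExpr (10 counts, total of 15) entered edgeR 4.0.16 in R 4.3.3: 12279 genes, TMM scaling, and 1 robust quasi-likelihood fit over the 5 groups. Tests were two-sided, with Benjamini-Hochberg adjustment over all tested genes and a threshold of 0.05. The ± beside a log2 fold change is its SE, from the change and its F statistic. Code was tested on simulated data. Alternatives used DESeq2 1.42.0 and limma 3.58.1 voom.

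Values in every library are given for the members of each role with the highest CPM or the smallest adjusted p over time or between lines. Of each related list, the 2 smallest adjusted p in WT over time and at day 0 between lines set which genes are named. Members named beyond this were chosen after their values were seen. The members and lists were chosen with earlier results of these data known.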

Additional observations from a re-analysis of the deposited data

Results flagged for a closer look

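The change from day 0 to day 6 differed between MIGA2-KO and WT for 25 of the 41 genes (edgeR quasi-likelihood, adjusted p under 0.05 over all tested genes), against 27.1% of tested genes, and the change in MIGA2-KO was the higher one each time. The values are the log2 fold change in MIGA2-KO minus that in WT. Among regulators of entry and exit they were 1.91 for Ccna2, 1.44 for Ccnb2, 2.94 for Cdc25c and 1.09 for Aurka. Cdc25c passed the low-count filter only through WT at day 0. In the spindle checkpoint they were 2.17 for Bub1, 1.11 for Bub1b and 0.65 for Mad2l1. At the centromere and kinetochore they were 1.58 for Cenpf, 1.68 for Ndc80, 1.26 for Nuf2 and 1.55 for Spc25. In the passenger complex they were 1.44 for Aurkb and 1.20 for Birc5. Spindle genes gave 1.60 for Kif11, 1.67 for Kif2c, 1.30 for Kif4, 0.84 for Tpx2 and 1.21 for Hmmr. Genes of cytokinesis gave 0.95 for Kif20a, 2.10 for Kif23, 2.18 for Ect2 and 1.12 for Racgap1. Genes of chromosome structure gave 1.28 for Top2a, 1.08 for Mki67 and 1.70 for Ncapg. The groups hold 3 libraries each, so single libraries were not tested as outliers. Across 24 alternatives the calls lost most often were those of Hmmr (17), Mad2l1 (13) and Cenpf (11).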

How the results depend on the processing

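Over 24 alternatives no call of the 41 genes changed sign, and the counts of members called in WT over time, at day 0 between the lines and in MIGA2-GFP against MIGA2-KO stayed within 1.5 times of 33, 30 and 20. MIGA2-KO against WT at day 6 (14 called) gave 8 with limma voom quality weights by group and 8 with a fit to only the groups compared, and 21 without replicate 1 of WT at both days and of MIGA2-KO at day 6, an alternative that also drops samples. MIGA2-GFP against WT (15 called) gave 7 with library totals, 8 with voom weights and 7 with only the groups compared. The difference of changes over time (25 called) gave 15 with voom weights. With library totals the mean summed CPM was 417.4 in WT day 0 libraries, 190.4 in those of WT day 6 and 240.2 in those of MIGA2-KO day 0, against 369.8, 221.2 and 231.6. The cause of these shifts was not tested.

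Leaving out 1 library at a time gave 31 to 33 calls in WT over time, 5 to 9 in MIGA2-KO over time (5 when MIGA2-KO day 0 replicate 3, or the library labelled MIGA2-KO day 6 replicate 1, was left out), 26 to 32 at day 0 and 9 to 18 at day 6 between the lines (9 each without WT day 6 replicate 2, WT day 6 replicate 3 and MIGA2-KO day 6 replicate 2), 6 to 16 in MIGA2-GFP against WT (6, 9 and 8 without MIGA2-GFP replicates 1, 2 and 3, and 9 without WT day 6 replicate 2), 16 to 22 in MIGA2-GFP against MIGA2-KO, and 18 to 28 for the difference of changes. Replicate numbers did not pair the samples: deviations of same-numbered libraries correlated at -0.723 to 0.125, with 2 of 30 pairs over 0.1. Differently numbered libraries of the 2 WT days correlated at -0.412 to 0.715, the highest between WT day 0 replicate 3 and WT day 6 replicate 1. A fit with the replicate number as a block gave 32, 7, 30, 13, 11, 20 and 22 calls in the 7 comparisons in the order above. Depth limits the lowest genes: 11 of the 41 had a library under 10 counts.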
